A study of Danio rerio with 28 samples.

Results

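Heat shock and unfolded protein genes encode the cell's folding machinery, and 6 of them were followed through early zebrafish development in cells labelled as germ cells: hspa5, xbp1, hspb1, hspe1, hsp90aa1.1 and hsp90aa1.2. They were chosen by name, as chaperone and stress genes of the endoplasmic reticulum, the mitochondrion and the cytosol, with earlier results of these data known. They make up 6 of the 1017 genes listed in the deposited table. The cells were sorted singly from embryos of maternal-zygotic (mz) tdrd6a-/- mutant females or of wild-type females. The study is about Tdrd6a, a germ plasm protein with Tudor domains, and the germ plasm mRNAs that reach these cells. Wild-type females are described with the transgene kop::egfp-f-nos1-3'UTR, a germ cell reporter driven by the kop promoter, and whether the mutant females carried it too cannot be told from the wording. Stages were 3.5, 8 and 24 hours post fertilization (hpf) in both genotypes and 2 weeks post fertilization (2wpf) in the wild type. Mutant plate 1 of 8 hpf also held 48 wells described as heterozygous, and a further wild-type plate was labelled with both 8 and 24 hpf. Both stayed out of the main tests.

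Each library was a plate of single cells. At 3.5 hpf there were 5 mutant plates of 74, 67, 46, 61 and 16 cells and 5 wild-type plates of 4, 72, 49, 66 and 14 cells. At 8 hpf there were 4 mutant plates of 48, 36, 26 and 2 cells and 4 wild-type plates of 21, 49, 6 and 25 cells. At 24 hpf there were 3 mutant plates of 42, 54 and 60 cells and 5 wild-type plates of 41, 20, 57, 35 and 43 cells, and the 2wpf plate held 76 wild-type cells. Values below are listed in this plate order. Whether plates came from separate animals or clutches is not stated, and p-values therefore cover only the variation among plates, which may be technical.

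Proteins that enter the endoplasmic reticulum fold there with the help of Hspa5, also known as BiP, an ATP-driven chaperone of the Hsp70 family. When unfolded proteins accumulate, the sensor Ire1 splices xbp1 mRNA, and the Xbp1 transcription factor made from it raises the output of chaperone and secretory genes. The cytosol and the mitochondrion have separate systems: Hsp90 and small heat shock proteins in the first, and the Hsp60 chamber with its Hsp10 lid in the second. Some of these genes are induced by heat or other stress, and others are made at a steady level in growing cells. CEL-seq reads the 3' end of transcripts, so spliced and unspliced xbp1 were not told apart.

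Deposited values lay 0.1 above a whole number, and that number is taken as the transcripts of a gene in a cell. Summed over the table, the median cell had 424 transcripts, and plate medians were 320 to 367 in the mutant and 351 to 399.5 in the wild type at 3.5 hpf, 416 to 535 and 373 to 502 at 8 hpf, and 525.5 to 634 and 440 to 627 at 24 hpf. Germ cell markers were present in every group, with summed plate levels at 24 hpf of 0.611 to 5.17 transcripts per cell in the mutant and 1.07 to 8.70 in the wild type. Their list held 14 names, some of them synonyms such as vasa and ddx4, and 10 genes were found. Other cell types were also present, and not every cell showed a germ cell marker. A transcript of the germ cell gene nanos3 was found in 58 of 156 mutant and 106 of 196 wild-type cells of 24 hpf. One of vasa, another germ cell gene, was found in 74 of 196 wild-type cells of 24 hpf and in 73 of 76 cells of 2wpf. The mixture of cells may thus differ between these stages. The 10 epidermal genes found (of 13 listed) stood at 6.88, 8.33 and 1.28 transcripts per cell in the mutant plates of 24 hpf and at 5.88, 2.7, 3.37, 2.14 and 4.42 in the wild-type plates. In mutant plates 1 and 2 and wild-type plate 1 of 24 hpf they exceeded the germ cell genes, as did the 10 skeletal muscle genes. Medians of the epidermal genes over plates were 1.41, 1.34 and 6.88 in the mutant and 0.633, 1.81 and 3.37 in the wild type at 3.5, 8 and 24 hpf.

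Mutant plate 1 of 8 hpf stood apart. It held 8.5 transcripts per cell of the epidermal genes, 5.56 of the 10 skeletal muscle genes and 5.35 of 4 globin genes, with no gene of the 3 lists at 0, while the other 7 plates of 8 hpf held at most 4.19, 0.833 and 0.0556. The muscle creatine kinase gene ckma and the globin gene hbbe3 were at 0 in all 101 wild-type cells of 8 hpf. Results that rest on this plate are given with and without it, except that pooled values include it. The part of these other cell types in the results was not tested.

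The members followed different courses. Between 3.5 and 8 hpf, hspa5 and xbp1 fell in both genotypes, and hsp90aa1.2 rose in both. The small heat shock gene hspb1 and the mitochondrial gene hspe1 rose at 8 hpf in the mutant. Between 8 and 24 hpf, hspb1 fell in the mutant and hspe1 rose in the wild type. In the wild type hspb1 moved in the same direction as in the mutant in each step, up and then down, without passing in the main fit. No step of hspb1 or hspe1 was shown to differ between genotypes. hsp90aa1.1 was found in every plate of 24 hpf and in 1 earlier plate. No member passed the test between mutant and wild type at any stage, and hsp90aa1.1, undetected at 3.5 hpf, could not be compared there. The plot of plate means by group shows these courses for each gene.

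**Figure D1:**
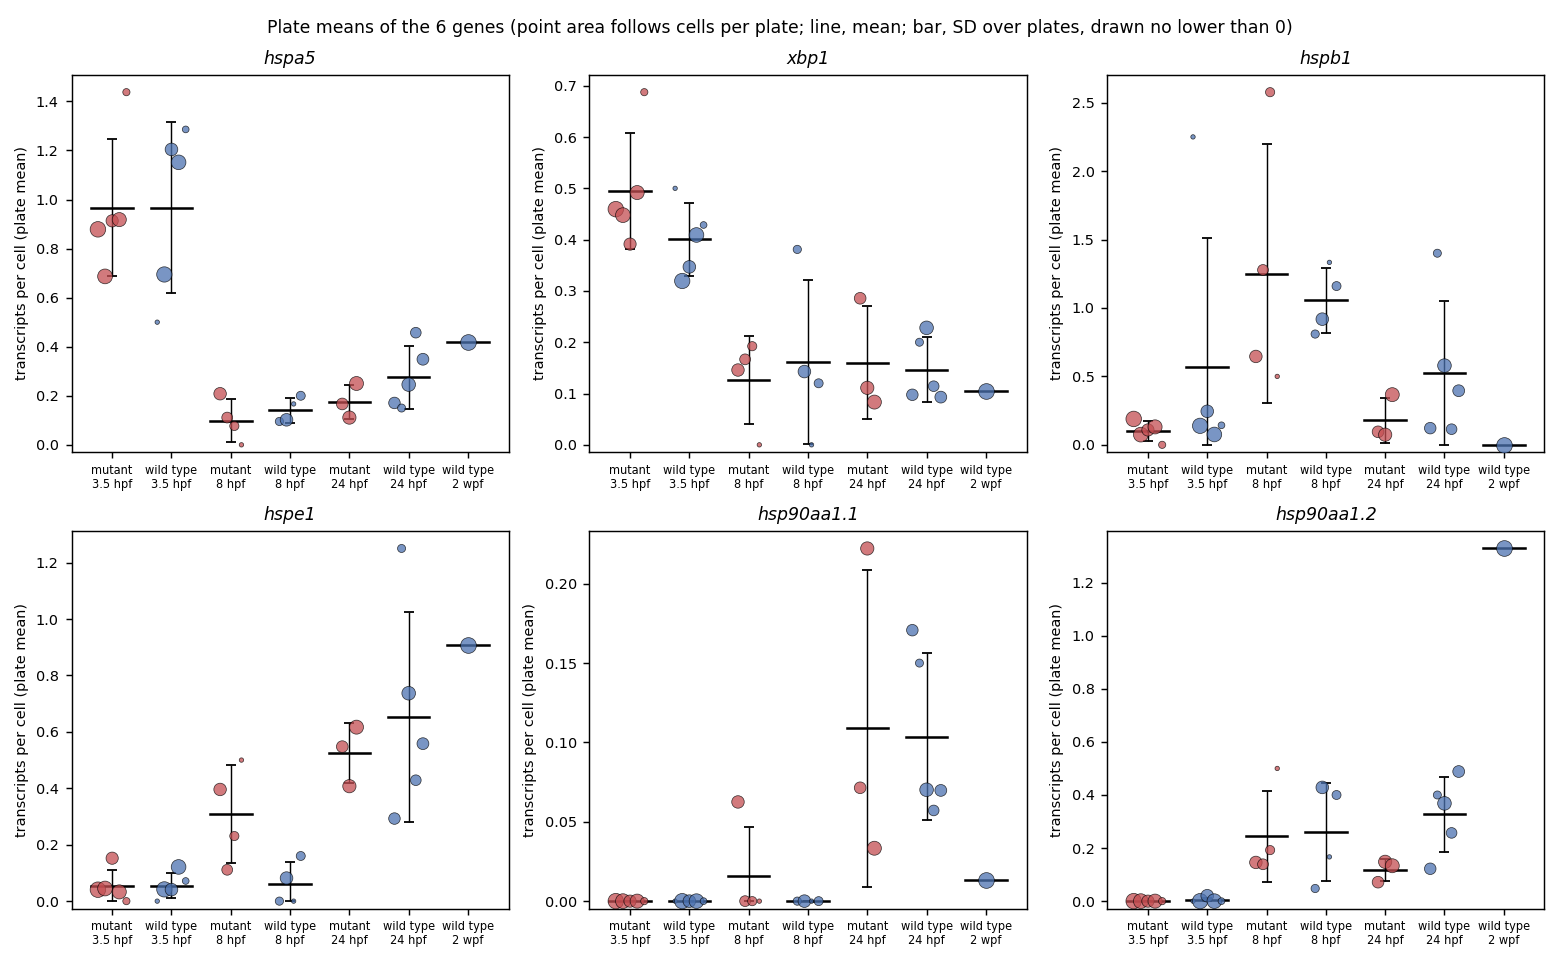
Transcripts per cell of the 6 genes, as plate means (y axis), in 7 groups of genotype and stage (x axis), with mutant plates in red and wild-type plates in blue; point area follows the number of cells, the line is the mean and the bar the SD over plates, drawn no lower than 0. The hspa5 means stood at 0.967 in both genotypes at 3.5 hpf and at or below 0.274 at 8 and 24 hpf, while hsp90aa1.2 was at most 0.0204 in any plate at 3.5 hpf and 1.33 in the 2wpf plate.

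hspa5 encodes BiP, the main Hsp70 chaperone of the endoplasmic reticulum. At 3.5 hpf the mutant plates held 0.878, 0.687, 0.913, 0.918 and 1.44 transcripts per cell and the wild-type plates 0.5, 0.694, 1.2, 1.15 and 1.29. At 8 hpf the mutant plates held 0.208, 0.111, 0.0769 and 0, and the wild-type plates 0.0952, 0.102, 0.167 and 0.2. Every plate of 3.5 hpf lay above every plate of 8 hpf, in both genotypes, and the mutant and wild-type ranges overlapped at each stage. At 24 hpf the mutant plates held 0.167, 0.111 and 0.25 and the wild-type plates 0.171, 0.15, 0.246, 0.457 and 0.349. The highest plate of 24 hpf, wild-type plate 4, was below the lowest plate of 3.5 hpf.

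The log2 difference of hspa5 plate means, 8 hpf minus 3.5 hpf, was −1.98 (SE 0.28) in the mutant, with an adjusted p of 1.53e-06, and −1.73 (SE 0.28) in the wild type, with an adjusted p of 1.16e-05. These and the other differences are limma estimates on log2 of transcripts plus 0.2, which understates the change of low genes, with Benjamini-Hochberg adjustment over 910 genes and a threshold of 0.05. The later step, from 8 to 24 hpf, had a difference of 0.36 (SE 0.32) in the mutant and 0.45 (SE 0.28) in the wild type, and neither passed. Cells with at least 1 hspa5 transcript made up 63.3% ± 14.3 of a mutant plate and 62.0% ± 10.3 of a wild-type plate at 3.5 hpf (SD, n = 5 each). The shares were 9.39% ± 7.78 and 13.6% ± 5.67 at 8 hpf (n = 4 each), and 17.0% ± 6.12 (n = 3) and 24.0% ± 8.92 (n = 5) at 24 hpf. After each cell was thinned to 150 listed transcripts, the hspa5 shares were 35.5% and 32.7% at 3.5 hpf, 3.0% and 4.65% at 8 hpf, and 4.79% and 7.91% at 24 hpf. The lower share at 8 hpf was thus present at equal depth. Over pooled cells hspa5 was 6.15-fold lower at 8 hpf than at 3.5 hpf in the mutant and 7.77-fold lower in the wild type.

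xbp1 encodes the transcription factor of the Ire1 branch of the unfolded protein response. At 3.5 hpf it stood at 0.459, 0.448, 0.391, 0.492 and 0.688 transcripts per cell in the mutant plates and at 0.5, 0.319, 0.347, 0.409 and 0.429 in the wild-type plates. At 8 hpf it stood at 0.146, 0.167, 0.192 and 0 in the mutant plates and at 0.381, 0.143, 0 and 0.12 in the wild-type plates. The stages did not overlap in the mutant, whereas wild-type plate 1 of 8 hpf lay above the lowest wild-type plates of 3.5 hpf. At 24 hpf the values were 0.286, 0.111 and 0.0833 in the mutant and 0.0976, 0.2, 0.228, 0.114 and 0.093 in the wild type. Mutant plate 1, with 0.286, lay above the mutant range of 8 hpf, and all 5 wild-type plates lay within the wild-type range.

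The xbp1 difference from 3.5 to 8 hpf was −1.13 (SE 0.26) in the mutant, with an adjusted p of 0.00119, and −0.83 (SE 0.26) in the wild type, with an adjusted p of 0.0144. The wild-type call ended without plate 3 of 8 hpf, which had 6 cells and no xbp1 transcript (log2 −0.58, adjusted p = 0.101), and without all plates of fewer than 10 cells (log2 −0.52, adjusted p = 0.0765). The share of cells with xbp1 was 38.6% ± 7.14 in mutant plates and 37.0% ± 9.14 in wild-type plates at 3.5 hpf (SD, n = 5 each). It was 11.9% ± 8.30 and 12.7% ± 12.1 at 8 hpf, and 12.8% ± 5.56 and 12.8% ± 7.10 at 24 hpf. In the 2wpf plate 10.5% of cells had an xbp1 transcript, so that the later stages lay close together in this measure.

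**Figure D2:**
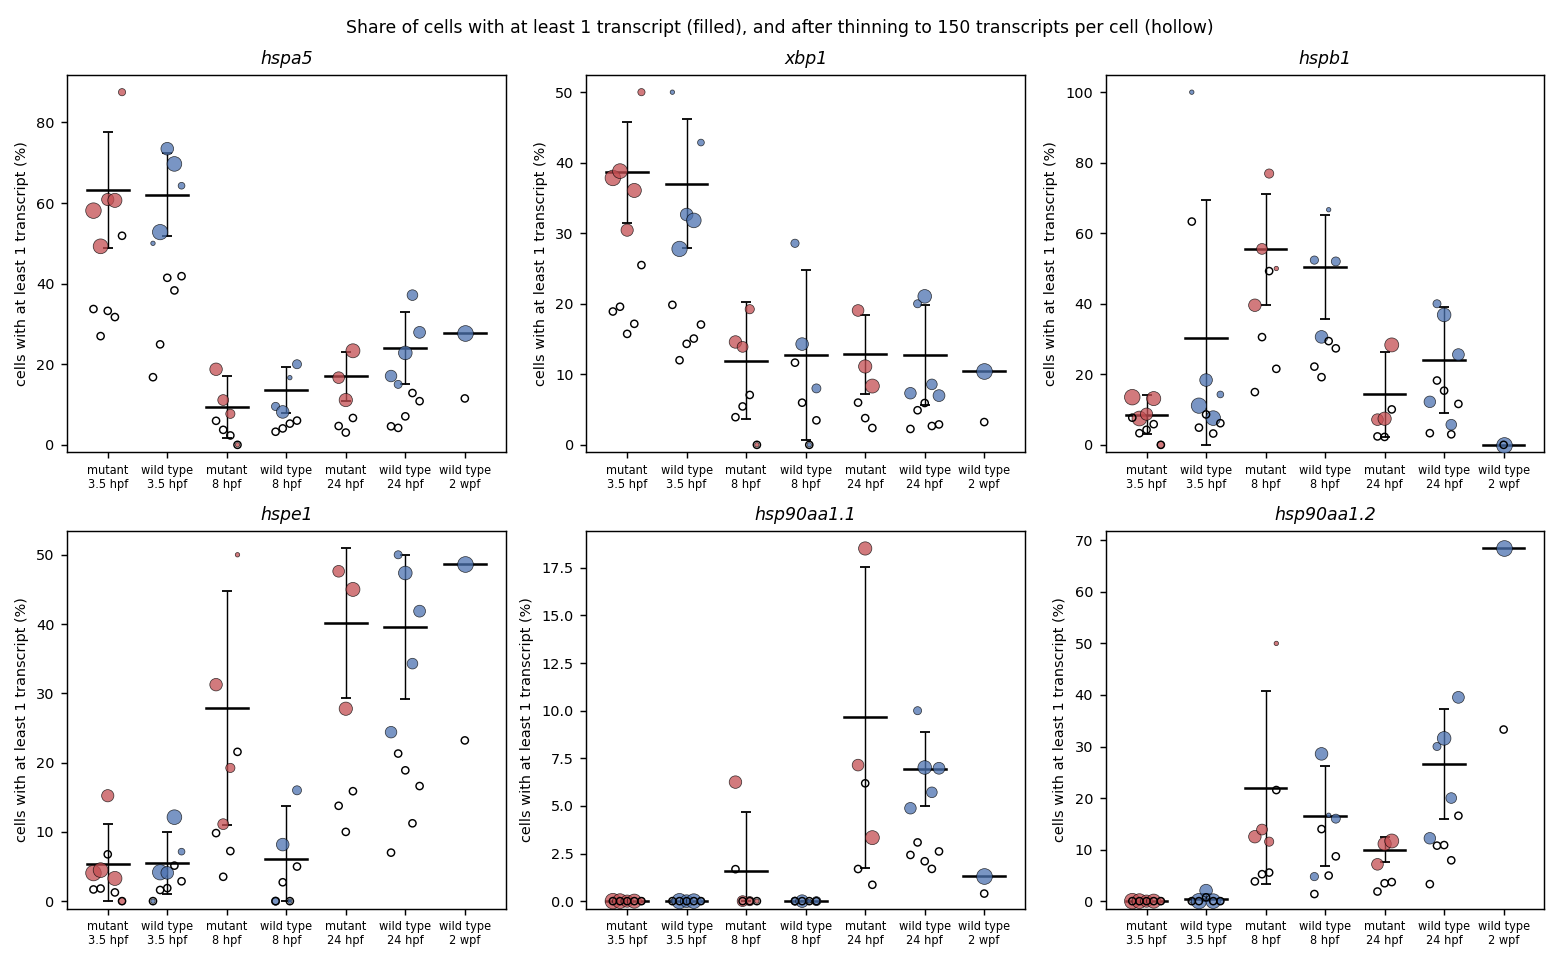
Share of cells with at least 1 transcript of each gene, in percent (y axis), per plate in 7 groups of genotype and stage (x axis); filled points are the shares as deposited, with area by cells per plate and with the mean and SD over plates, and hollow points the expected shares after thinning each cell to 150 listed transcripts. The hspa5 and xbp1 shares were highest at 3.5 hpf in both measures, the hspb1 share was 0 at 2wpf and the hsp90aa1.2 share reached 68.4% there.

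hspb1 encodes the small heat shock protein Hsp27, which holds unfolding proteins in a soluble state. At 3.5 hpf it stood at 0.189, 0.0746, 0.109, 0.131 and 0 transcripts per cell in the mutant plates and at 2.25, 0.139, 0.245, 0.0758 and 0.143 in the wild-type plates. The value of 2.25 came from wild-type plate 1, whose 4 cells all had the transcript, and the other 4 wild-type plates overlapped the mutant. Plate 1 also held 5.5 epidermal and 15.25 germ cell transcripts per cell, where the other wild-type plates of 3.5 hpf held at most 0.643 and 6.14. At 8 hpf the hspb1 values were 0.646, 1.28, 2.58 and 0.5 in the mutant and 0.81, 0.918, 1.33 and 1.16 in the wild type. Every mutant plate of 8 hpf was above every mutant plate of 3.5 hpf, and every wild-type plate of 8 hpf was above the wild-type plates of 3.5 hpf other than that of 4 cells. At 24 hpf they were 0.0952, 0.0741 and 0.367 in the mutant and 0.122, 1.4, 0.579, 0.114 and 0.395 in the wild type. The value of 1.4, in wild-type plate 2, held 1 cell with 18 hspb1 transcripts, the highest of any cell.

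The hspb1 difference from 3.5 to 8 hpf was 2.09 (SE 0.52) in the mutant, with an adjusted p of 0.00255. In the wild type it was 1.28 (SE 0.52), with an adjusted p of 0.0569 that missed the threshold, but without the 4-cell plate it was 1.84 with an adjusted p of 0.000641. The wild-type step also passed without mutant plate 3 of 8 hpf (adjusted p = 0.0463) or wild-type plate 2 of 24 hpf (adjusted p = 0.0379). The steps were not shown to differ between genotypes, since the difference between them was 0.81 (SE 0.73), with an adjusted p of 0.986. Between 8 and 24 hpf hspb1 fell in the mutant (log2 −1.80, SE 0.59, adjusted p = 0.0326) and stood lower in the wild type without passing (log2 −1.06, SE 0.52, adjusted p = 0.129).

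The mutant fall of hspb1 from 8 to 24 hpf rested on few plates. Its adjusted p was 0.0775 without mutant plate 2 of 8 hpf, 0.106 without plate 3 of 8 hpf, 0.133 without plate 1 of 24 hpf and 0.116 without plate 2 of 24 hpf. In the wild type the same step passed without plate 2 of 24 hpf (log2 −1.41, adjusted p = 0.0353) or without the 4-cell plate of 3.5 hpf (adjusted p = 0.036). Cells with hspb1 made up 8.56% ± 5.47 of mutant plates and 30.3% ± 39.2 of wild-type plates at 3.5 hpf, 55.5% ± 15.7 and 50.4% ± 14.9 at 8 hpf, and 14.3% ± 12.2 and 24.1% ± 15.0 at 24 hpf. At 2wpf none of 76 cells had an hspb1 transcript, which allows a share of up to 3.95% and a level at least 11.2-fold lower than the pooled cells of 24 hpf in the wild type (0.444 transcripts per cell), with 1 plate and no test. That bound sets 3 transcripts over the group as its floor and covers counting error only.

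hspe1 encodes Hsp10, the co-chaperonin that closes the Hsp60 folding chamber of mitochondria. At 3.5 hpf it stood at 0.0405, 0.0448, 0.152, 0.0328 and 0 transcripts per cell in the mutant plates and at 0, 0.0417, 0.0408, 0.121 and 0.0714 in the wild-type plates. At 8 hpf it stood at 0.396, 0.111, 0.231 and 0.5 in the mutant plates and at 0, 0.0816, 0 and 0.16 in the wild-type plates. At 8 hpf the lowest mutant plate, plate 2, lay below the highest wild-type plate, plate 4, and the other plates of the genotypes were apart. At 24 hpf the values were 0.548, 0.407 and 0.617 in the mutant and 0.293, 1.25, 0.737, 0.429 and 0.558 in the wild type. Every wild-type plate of 24 hpf was above every wild-type plate of 8 hpf, and the genotypes overlapped at 24 hpf as well.

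The hspe1 difference from 3.5 to 8 hpf was 0.96 (SE 0.28) in the mutant, with an adjusted p of 0.00729, and 0.00 (SE 0.28) in the wild type. The next step, from 8 to 24 hpf, was 0.56 (SE 0.32, adjusted p = 0.239) in the mutant and 1.66 (SE 0.28) in the wild type, with an adjusted p of 4.25e-05. The rise in the mutant at 8 hpf remained past the threshold without mutant plate 1, the plate with muscle and globin transcripts (log2 0.87, adjusted p = 0.0296). It did not pass once the small plates, of under 10 cells, were left out as well (log2 0.55, adjusted p = 0.164), where the mutant step from 8 to 24 hpf did (log2 0.97, adjusted p = 0.0292). Nor did it pass with the top cell of each plate left out (log2 0.44, adjusted p = 0.244). At 2wpf hspe1 stood at 0.908 transcripts per cell, with 48.7% of cells positive, against 39.6% ± 10.4 in the wild-type plates of 24 hpf (n = 5).

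hsp90aa1.1 and hsp90aa1.2 encode cytosolic Hsp90 alpha proteins, ATP-driven chaperones of kinases, receptors and, in the case of zebrafish hsp90aa1.1, of myosin in skeletal muscle. The 2 genes are neighbours in the zebrafish genome annotation and closely alike, so reads may be split between them and the value of each is uncertain. hsp90aa1.1 was not detected in any of the 264 mutant or 205 wild-type cells of 3.5 hpf. At 8 hpf it stood at 0.0625, 0, 0 and 0 in the mutant plates, 3 transcripts in plate 1 and none elsewhere, and at 0 in the 4 wild-type plates. At 24 hpf it stood at 0.0714, 0.222 and 0.0333 transcripts per cell in the mutant plates and at 0.171, 0.15, 0.0702, 0.0571 and 0.0698 in the wild-type plates.

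hsp90aa1.1 passed the filter on low values through exactly 3 plates, all of 24 hpf, so its steps to that stage are described with no test. From 8 to 24 hpf the log2 difference was 0.48 in the mutant, or 0.58 without mutant plate 1 of 8 hpf, and 0.59 in the wild type. The pooled wild-type level at 24 hpf was at least 3.26-fold higher than the floor of 3 transcripts over the group at 8 hpf. With the top cell of each plate left out the wild-type difference was 0.27, 1 cell of plate 1 having 6 of its 7 transcripts.

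Muscle transcripts were counted beside hsp90aa1.1. In the 4 plates of 24 hpf with at least 3 cells of each kind, the 20 cells with hsp90aa1.1 held 7.79 ± 10.2 transcripts of the 10 muscle genes and the 176 cells without it 3.09 ± 2.34 (mean and SD over plates), higher in 3 of the 4 plates. The germ cell genes were also higher in the cells with it in 3 of the 4 plates, with 5.90 ± 6.50 against 3.52 ± 2.86. At 8 hpf the 3 cells with it lay in mutant plate 1, and the 48 wells of the same plate described as heterozygous held 3 transcripts of it and 6.15 muscle transcripts per cell. The 2wpf plate held 0.171 muscle transcripts per cell and 1 hsp90aa1.1 transcript in 76 cells.

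hsp90aa1.2 was at 0 in all 5 mutant plates of 3.5 hpf and at 0, 0, 0.0204, 0 and 0 transcripts per cell in the wild-type plates, a single transcript in plate 3. At 8 hpf it stood at 0.146, 0.139, 0.192 and 0.5 in the mutant plates and at 0.0476, 0.429, 0.167 and 0.4 in the wild-type plates. In neither genotype did the plates of 8 hpf overlap those of 3.5 hpf, and the genotypes overlapped at both stages. At 24 hpf the values were 0.0714, 0.148 and 0.133 in the mutant and 0.122, 0.4, 0.368, 0.257 and 0.488 in the wild type. Of the wild-type plates of 24 hpf, plate 1 alone lay within the mutant range.

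The hsp90aa1.2 difference from 3.5 to 8 hpf was 1.08 in both genotypes (SE 0.25 each). Its adjusted p was 0.00105 in mutant and 0.00104 in wild-type cells. In the mutant the pooled cells of 8 hpf, with 0.161 transcripts per cell, were at least 14.1-fold higher than the floor of 3 transcripts over the group at 3.5 hpf. The mutant call was lost with the top cell of each plate left out (log2 0.44, adjusted p = 0.189), and the wild-type call was not lost in any of the 43 alternative settings. Between 8 and 24 hpf the difference was −0.42 (SE 0.29) in the mutant and 0.25 (SE 0.25) in the wild type, neither past the threshold. At 2wpf the gene stood at 1.33 transcripts per cell and was found in 68.4% of cells, and in 33.3% after thinning to 150 transcripts. The highest plate of 24 hpf, wild-type plate 5, stood at 0.488, with 39.5% of cells and 16.6% after thinning. The plates of 24 hpf also held other cell types, and in their nanos3-positive cells the wild-type plates stood at 0.286 to 0.7. The part of the cell mixture in the higher value at 2wpf was not tested.

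The order of stages differed by member. In both genotypes the hspa5 mean was highest at 3.5 hpf, then at 24 hpf and lowest at 8 hpf, and the step from 8 to 24 hpf did not pass the test. For hspb1 it was highest at 8 hpf in both genotypes, and the plates of 3.5 and 24 hpf overlapped. For hspe1 in the wild type 3.5 and 8 hpf were alike in mean (0.0550 ± 0.0449, n = 5, and 0.0604 ± 0.0767, n = 4) and 24 hpf was above both (0.653 ± 0.372, n = 5). The mutant means of hspe1 were 0.0541 ± 0.0576 (n = 5), 0.309 ± 0.173 (n = 4) and 0.524 ± 0.107 (n = 3) at the same stages. In the 2wpf plate hspa5 stood at 0.421 transcripts per cell, between the wild-type means of 24 hpf (0.274) and 3.5 hpf (0.967), and xbp1 at 0.105, below each wild-type mean. These placements rest on 1 plate of 2wpf and were not tested.

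Counted over the list, 5 of 6 members passed from 3.5 to 8 hpf in the mutant, where 31.9% of all 910 tested genes passed. These were 3 higher and 2 lower, beside 11.8% and 20.1% of all genes, and the count was also 5 without mutant plate 1 of 8 hpf. The wild type had 3 of 6, beside 34.7% of all tested genes, with 1 higher and 2 lower, beside 11.6% and 23.1%. For the later step 1 of 6 passed in the mutant, beside 18.6% of all genes, and it was lower, as were 2.64% of all genes. In the wild type hspe1 passed, beside 31.0% of all genes, and was higher, as were 24.1%; hsp90aa1.1 is left out of this count because the filter took it in through plates of 24 hpf. The median log2 difference of the 6 members was 0.53 and 0.00 for the first step in the mutant and the wild type, beside 0.01 and −0.02 over all tested genes. All 6 members passed the filter on low values. In the first step hsp90aa1.1 was at 0 in every wild-type plate of both stages, so it could not pass there.

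**Figure D3:**
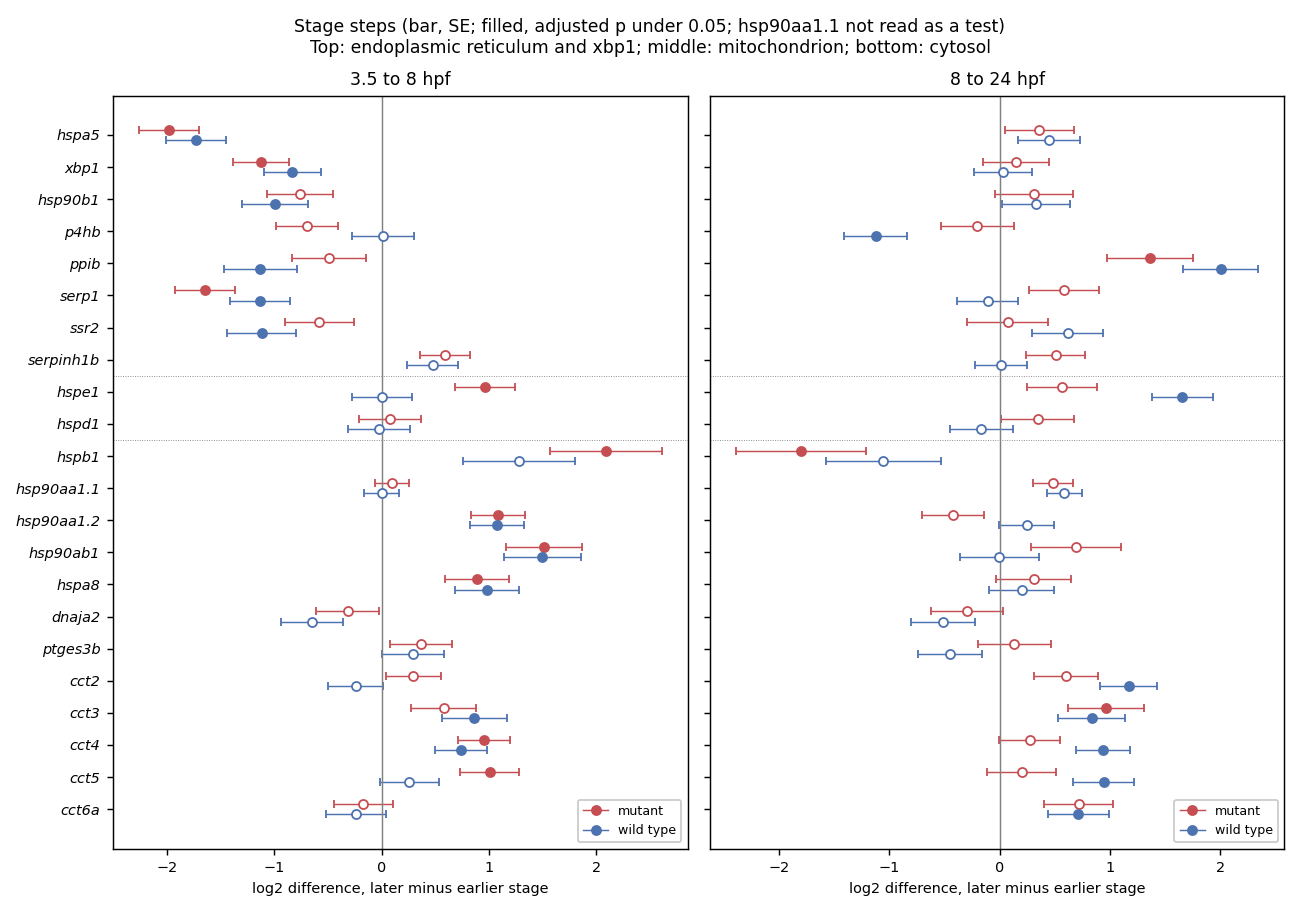
Log2 difference of plate means, later minus earlier stage (x axis), for the 6 genes and 16 further folding genes (y axis), from 3.5 to 8 hpf on the left and from 8 to 24 hpf on the right, with mutant in red and wild type in blue; bars are standard errors and filled points have a limma adjusted p under 0.05, and hsp90aa1.1, whose steps were not read as a test, is drawn hollow. In the first step hspa5, xbp1 and serp1 were lower and hsp90aa1.2, hsp90ab1, hspa8 and cct4 higher in both genotypes, and in the second ppib and cct3 were higher in both.

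Other genes of the folding pathways were taken from a list of 116 further names, of which 16 were in the table. From 3.5 to 8 hpf in the mutant, 4 of the 16 rose and 1 fell, beside 11.8% and 20.1% of all genes. Those that rose were hsp90ab1, the constitutive cytosolic Hsp90 (3.11 transcripts per cell at 8 hpf against 0.886 at 3.5 hpf; log2 1.51, SE 0.36, adjusted p = 0.00127), hspa8, the constitutive cytosolic Hsp70 (log2 0.89, adjusted p = 0.0205), and cct4 and cct5, subunits of the TRiC chaperonin that folds actin and tubulin (log2 0.95 and 1.01). The gene that fell was serp1, of a small protein of the endoplasmic reticulum membrane (0.0278 against 0.523; log2 −1.64, SE 0.28, adjusted p = 2.34e-05). The hspa8 call was lost without mutant plate 1 of 8 hpf (log2 0.60, adjusted p = 0.115).

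Wild-type cells had 4 of the 16 higher and 4 lower in the same step, at 8 hpf against 3.5 hpf, beside 11.6% and 23.1% of all genes. hsp90ab1 (4.63 against 1.35 transcripts per cell; log2 1.5, adjusted p = 0.00132) and hspa8 (log2 0.98, adjusted p = 0.0106) rose, as did cct3 and cct4, named after their values were seen. Those that fell were serp1 (0.199 against 0.654; log2 −1.13, adjusted p = 0.00175), ssr2, a subunit of the translocon-associated complex (log2 −1.12, adjusted p = 0.00717), ppib, a proline isomerase (log2 −1.13, adjusted p = 0.0106), and hsp90b1, the Hsp90 of the endoplasmic reticulum (log2 −0.99, adjusted p = 0.0127). The endoplasmic reticulum genes p4hb and serpinh1b stood at log2 0.01 and 0.48 and did not pass. The calls of ssr2 and ppib were lost without wild-type plate 3 of 8 hpf (adjusted p = 0.0593 and 0.0709), that of hsp90b1 without plate 1 of 8 hpf (0.0650), that of cct4 when either of these plates was left out, and that of cct3 for any 1 of 4 plates. In the mutant ssr2, ppib and hsp90b1 stood at log2 −0.58, −0.49 and −0.76 and did not pass.

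Of the 16, 2 rose in the mutant from 8 to 24 hpf and none fell, beside 15.9% higher and 2.64% lower of all genes. They were ppib (1.02 against 0.306; log2 1.36, SE 0.39, adjusted p = 0.0152) and cct3 (0.735 against 0.313; log2 0.97, adjusted p = 0.0469). The cct3 call was lost when any 1 of 18 plates was left out. The ppib call was lost without mutant plate 4 of 8 hpf (adjusted p = 0.0544) or mutant plate 1 or 3 of 24 hpf (0.0800 and 0.0915). In wild-type cells 6 rose and 1 fell, beside 24.1% and 6.92% of all genes. ppib (1.21 against 0.170; log2 2.00, SE 0.34, adjusted p = 5.06e-05) and the chaperonin genes cct2 (log2 1.17, adjusted p = 0.000611), cct4 (log2 0.94), cct5 (log2 0.94) and cct3 (log2 0.83) rose, as did cct6a, named after its values were seen. The cct6a call was lost when any 1 of 18 plates was left out, that of cct3 for any 1 of 6, and that of cct5 without plate 1 of 8 hpf (adjusted p = 0.0607). p4hb, a protein disulfide isomerase, fell (0.107 against 0.530; log2 −1.13, SE 0.29, adjusted p = 0.00279). The mitochondrial Hsp60 gene hspd1, the partner and genomic neighbour of hspe1, passed in no step, with differences between −0.17 and 0.34.

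No member passed between mutant and wild type, at 3.5, 8 or 24 hpf, by limma or by limma voom on summed transcripts. At 3.5 hpf hsp90aa1.1 was at 0 in all cells, and hsp90aa1.2 had 0 transcripts in mutant and 1 in wild-type cells. Their results at that stage were thus fixed in advance and say nothing about genotype. At 8 hpf hsp90aa1.1 had only 3 transcripts in mutant and 0 in wild-type cells. At an unadjusted p under 0.05 the counts of members were 0, 1 and 1, beside 5.60%, 7.36% and 2.31% of all genes. Over all 910 genes, limma called 0.220%, 0% and 0.110% at the 3 stages. At 3.5 hpf the smallest p was that of hspb1, with 0.101 ± 0.0701 transcripts per cell in mutant plates and 0.570 ± 0.941 in wild-type plates (log2 −0.80, SE 0.49, adjusted p = 0.895), a difference that was −0.23 without the 4-cell plate. hspa5 had 0.967 ± 0.280 and 0.967 ± 0.348, with a 95% interval of −0.50 to 0.56 for the log2 difference.

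At 8 hpf the smallest p among members was that of hspe1. Its plate means averaged 0.309 ± 0.173 in mutant cells and 0.0604 ± 0.0767 in wild-type cells (SD, n = 4 each), a log2 difference of 0.95 (SE 0.29) with an unadjusted p of 0.0029 and an adjusted p of 0.325, which ranged from 0.137 to 1 over the alternatives. The difference was 0.85 without mutant plate 1 and 0.42 when the small plates were left out too. Its pooled shares were 22.3% of 112 mutant cells and 7.92% of 101 wild-type cells. Of these mutant cells 48 came from plate 1, and the pooled share was not taken without them. The test of whether the genotype difference of hspe1 changed between stages gave 0.96 (SE 0.39, adjusted p = 0.748) from 3.5 to 8 hpf and −1.09 (SE 0.42, adjusted p = 0.936) from 8 to 24 hpf, so that its call in the mutant and not in the wild type does not show a difference between genotypes. It was the 1 member with an unadjusted p under 0.05 in each of these tests, beside 5.05% and 4.29% of all genes. Neither limma nor voom called a member in them, and limma called 0% of all genes.

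At 24 hpf hsp90aa1.2 had the smallest p. Its plate means averaged 0.118 ± 0.0407 in mutant cells (SD, n = 3) and 0.327 ± 0.141 in wild-type cells (n = 5), a log2 difference of −0.69 (SE 0.27) with an unadjusted p of 0.0163 and an adjusted p of 1. Germ cell, muscle and epidermal markers also differed between these plates. Mutant plates 1, 2 and 3 held 1.43, 0.611 and 5.17 transcripts per cell of the 10 germ cell genes, and wild-type plates 1 to 5 held 1.07, 8.70, 6.47, 2.71 and 6.23. The skeletal muscle genes stood at 4.83, 5.74 and 0.967 in the mutant plates and at 6.78, 2.45, 1.51, 0.829 and 1.3 in the wild-type plates, and the epidermal genes as given above. Wild-type plate 1, the lowest of its group in germ cell genes, was also the lowest in hsp90aa1.2, with 0.122. Mutant plate 3, the highest of its group in germ cell genes, held 0.133, the median of the mutant plates. Cells with a nanos3 transcript held 0.167, 0.333 and 0.125 of hsp90aa1.2 in the mutant plates, over 12, 6 and 40 cells. In the wild-type plates such cells held 0.286, 0.286, 0.370, 0.333 and 0.7, over 7, 14, 46, 9 and 30 cells. In the smaller sets these means rest on few transcripts, and the genotypes were not tested within nanos3-positive cells. Without wild-type plate 1 the genotype difference was −0.86 (adjusted p = 0.263, with a range of 0.229 to 1 over the alternatives). The part of these cell types in the difference was not tested.

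**Figure D4:**
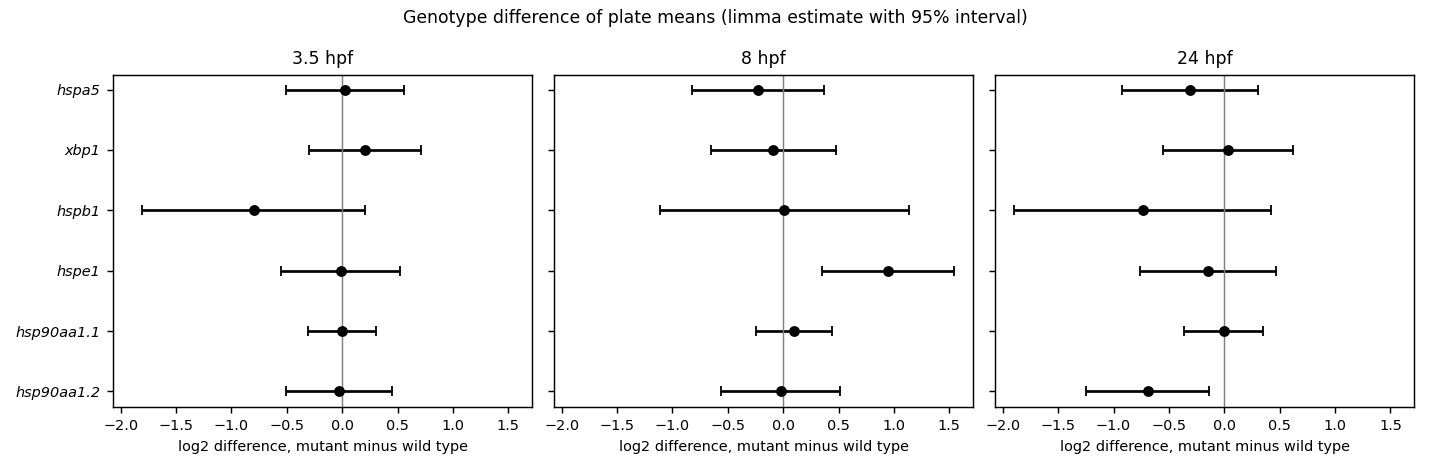
Genotype difference of the 6 genes, as log2 of mutant minus wild-type plate means (x axis), at 3.5, 8 and 24 hpf from left to right; points are limma estimates and bars their 95% intervals, not adjusted for the number of genes. The intervals of hspe1 at 8 hpf and hsp90aa1.2 at 24 hpf lie off 0, and neither gene passed after adjustment. At 3.5 hpf hsp90aa1.1 was at 0 in every plate, so its interval there rests on the spread in other groups and is no result.

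Of the 16 further folding genes none passed between genotypes at any stage by limma or voom. The smallest p-values were those of the Hsp40 gene dnaja2 at 3.5 hpf (0.385 in mutant and 0.560 in wild-type cells; adjusted p = 0.960), of cct2 at 8 hpf (0.280 and 0.0729; adjusted p = 0.370) and of the collagen chaperone gene serpinh1b at 24 hpf (0.245 and 0.0970; adjusted p = 1). At an unadjusted p under 0.05 the counts were 0, 3 and 1 of the 16, beside 5.60%, 7.36% and 2.31% of all genes.

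Cells of 24 hpf were also divided within each plate by nanos3, an RNA-binding protein gene that marks germ cells, into those with at least 1 nanos3 transcript and those with none. The reporter carries a nos1 3'UTR, and whether its reads count towards nanos3 was not tested. Of the 6 members none passed by limma with plate as a block over 8 plates, where 2.20% of all genes did, and 2 had an unadjusted p under 0.05, beside 23.0% of all genes. hspb1 stood at 0.167, 0 and 0.475 transcripts per cell in the nanos3-positive cells of the mutant plates, against 0.0667, 0.0833 and 0.15 in the negative cells. It stood at 0.286, 1.79, 0.609, 0.333 and 0.5 in those of the wild-type plates, against 0.0882, 0.5, 0.455, 0.0385 and 0.154. It was thus higher in nanos3-positive cells in 7 of 8 plates (log2 0.70, SE 0.22, adjusted p = 0.0807). It passed without mutant plate 2, which had 6 such cells (log2 0.87, adjusted p = 0.0274), and with positive cells taken from 2 transcripts (log2 1.14, adjusted p = 0.0251). In the other 8 of 10 alternatives hspb1 did not pass, with limma adjusted p up to 0.289. The 1.79 of wild-type plate 2 came from 14 positive cells, 1 of which held 18 hspb1 transcripts. xbp1 leaned to the nanos3-negative cells in 7 of 8 plates (log2 −0.61, SE 0.23, adjusted p = 0.126). hsp90aa1.2 had a difference of 0.46 (SE 0.26, adjusted p = 0.303) and was higher in nanos3-positive cells in 6 of 8 plates. The nanos3-positive cells had the lower median of listed transcripts in 8 of 8 plates.

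**Figure D5:**
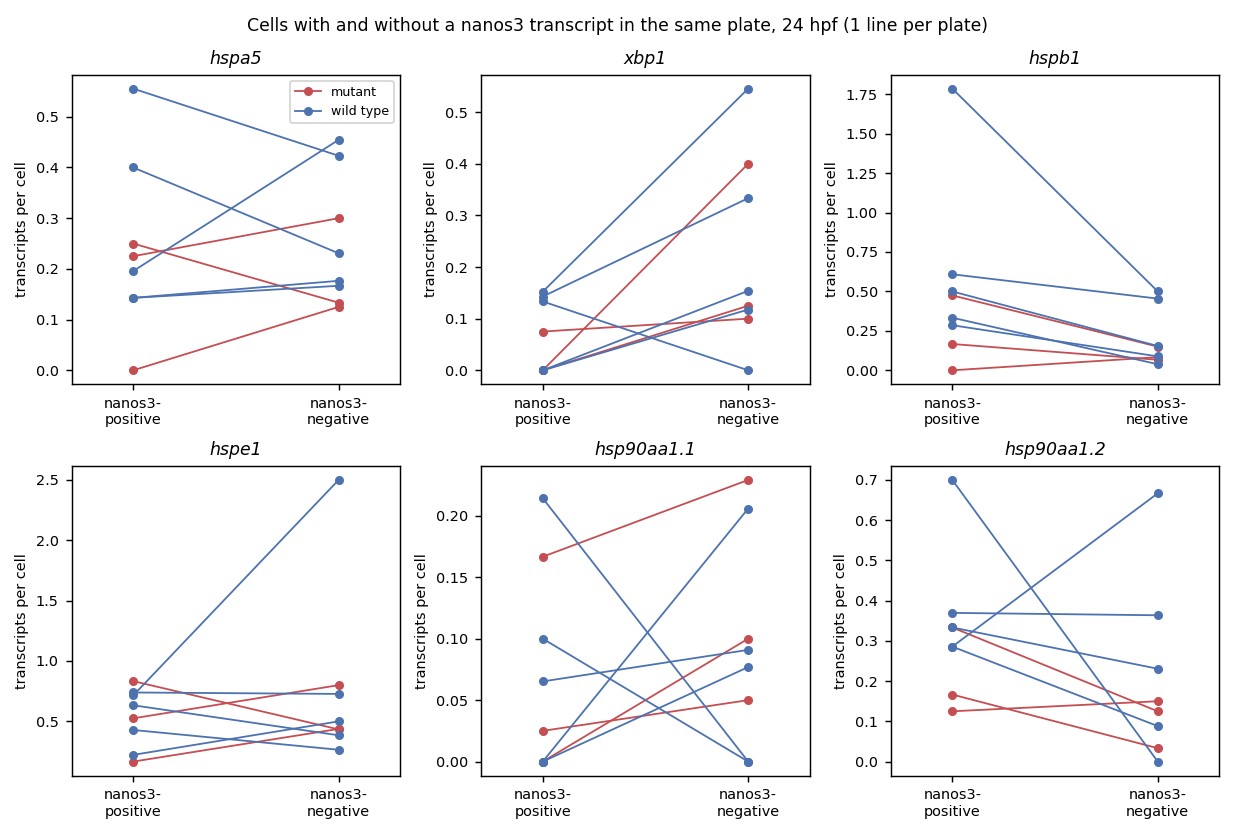
Transcripts per cell of the 6 genes (y axis) in cells with and without a nanos3 transcript (x axis) of the same plate at 24 hpf, with 1 line per plate, mutant in red and wild type in blue. The hspb1 lines fall from nanos3-positive to nanos3-negative cells in 7 of 8 plates and the xbp1 lines climb in 7 of 8.

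Cells with a given member could also be described by the other genes they held. In the 7 plates of 24 hpf with enough cells of both kinds, the 69 cells with hspb1 held 6.83 ± 5.82 transcripts of the germ cell genes and the 248 without it 2.98 ± 2.25 (mean and SD over plates), higher in 6 plates. The muscle genes stood at 5.81 ± 7.28 and 3.32 ± 1.91 in the same cells, higher in 4 plates. The 69 cells with hsp90aa1.2 held 5.42 ± 2.82 transcripts of the germ cell genes and the 283 without it 3.65 ± 3.09, higher in 6 of 8 plates, and 2.21 ± 2.61 and 3.29 ± 2.29 of the muscle genes, higher in 1 of 8. At 8 hpf the germ cell values for hsp90aa1.2 were 11.1 ± 6.63 and 5.52 ± 3.12, higher in all 5 plates. For hspb1 they were 5.25 ± 3.45 and 6.26 ± 4.70 at 8 hpf, higher in 2 of 6 plates. At 3.5 hpf they were 7.69 ± 6.10 and 6.23 ± 3.31, higher in 5 of 7 plates. At that stage the list was led by h1m, found in 242 of 264 mutant cells (1716 transcripts) and 192 of 205 wild-type cells (643). Its sum at 3.5 hpf therefore does not set germ cells apart from other cells. For xbp1 at 24 hpf the germ cell values were 2.16 ± 2.42 in cells with it and 4.45 ± 3.48 in cells without it, higher in 2 of 8 plates. At 8 hpf the values for xbp1 were 5.86 ± 6.42 and 5.09 ± 4.12, higher in 3 of 5 plates. The means for hspb1 and xbp1 thus stood in another order at 8 hpf than at 24 hpf. At 8 hpf both differences were smaller than the SDs, and no test compared the stages. These are descriptions, since cells of 1 plate are not replicates and the number of transcripts per cell differs between them.

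hspa5 and xbp1 were also compared from cell to cell. Within plates of at least 10 cells the mean Spearman correlation of hspa5 and xbp1 was 0.00 at 3.5 hpf over 9 plates, from −0.36 to 0.24, and 105 cells of 469 held both, where plate shares alone give 99.8. The mean of the same pair at 24 hpf was 0.07 over 8 plates. At 3.5 hpf 25.8% of mutant cells and 19.5% of wild-type cells held no transcript of any member. Among all cells with hspa5, 68.5% held a single transcript, and at such counts a weak correlation is no finding.

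Across plates the courses were grouped otherwise. Over the 26 plates the genes whose plate means were most like those of hspa5 were ldhba, ppifb and prdx1 (Spearman rho 0.87, 0.86 and 0.85), and those most like xbp1 were arpp19b, zgc:158852 and cdc20 (0.87, 0.86 and 0.85). For hspe1 they were cct5, h3f3b.1 and zgc:123194 (0.85, 0.83 and 0.82). For hsp90aa1.2 they were nanos3, cct4 and marcksl1a (0.86, 0.77 and 0.76). For hsp90aa1.1 they were the muscle genes tnnc2 and ttna with hmga2 (0.97, 0.94 and 0.94). hsp90aa1.1 was at 0 in all 5 plates of each genotype at 3.5 hpf, and in 3 mutant and 4 wild-type plates of 8 hpf. Its rhos, here and with hspe1 below, thus rest largely on tied zeros and on presence at 24 hpf, and cannot single out muscle genes. Between members, hspa5 and xbp1 had a rho of 0.64, hspe1 and hsp90aa1.1 of 0.75, and xbp1 and hsp90aa1.2 of −0.81. The plates share stage and depth, and no test was made of these values.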

How the data were processed

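The authors deposited 1 table of 1017 genes and 1203 single cells from 28 libraries. Its unit was named signal: the deposited numbers lie 0.1 above a whole number (tolerance 1e-06), and 0.1 was subtracted to give transcripts. Per the labels' protocols, RNA was extracted with Trizol and amplified by CEL-seq. The submitters' processing notes name BWA, with no version, and the build Zv9. How reads were counted, cells selected and values scaled is not given in the sources used here, so whether a transcript is a molecule or a read is not known. Summed transcripts per tested plate ranged from 1027 to 32018, and intervals and floors (3 transcripts) cover counting error only.

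The plate was the replicate. Of 28 libraries, 26 plates with 1034 cells entered the tests. Mutant plate 1 of 8 hpf entered with the cells of its first 48 barcodes, described as mutant, and with 1 cell numbered beyond the 96 listed barcodes. That cell was counted as mutant, although the description of the barcodes does not cover it. The wells described as heterozygous, the plate labelled with both 8 and 24 hpf (45 cells) and the 2wpf plate were described only. Every gene of the deposited table reached at least 4 transcripts in at least 1 cell, and shares of all genes refer to genes of this table. A filter kept the 910 genes whose deposited mean reached 0.2 in 3 or more plates and left out 107. Plate means as log2(transcripts per cell + 0.2) were fitted with limma 3.58.1 (R 4.3.3) over 6 groups in 1 fit, 20 residual degrees of freedom, trended and robust moderation, two-sided tests and Benjamini-Hochberg adjustment at 0.05. The main fit used no count model, since the scaling of the values is unknown, and voom on summed transcripts was run as an alternative. The procedure was tested on simulated plates, with changes placed only in genes of higher mean level and with no differences in cell mixture. That test does not cover members of low level such as hsp90aa1.1 and hsp90aa1.2.

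Members and lists were chosen with earlier results of these data known. All 6 members are described, and a further folding gene is named where it passed, up to 6 per comparison by smallest p; otherwise the 1 of smallest p is named for each genotype comparison. Germ cell genes carry the prefix "germ" in the table, left out here. All 6 members matched a gene in the RefSeq annotation GRCz12tu, used for names and neighbours alone; no sequence or coordinate is given. Alternatives were other pseudocounts, filters, scalings, voom, shares of cells, plates left out, cell weights, a replicate block and plain moderation. The genes whose plate means were most like those of hspb1 are not reported here.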

Additional observations from a re-analysis of the deposited data

Results flagged for a closer look

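In 4 of 26 groups of at least 4 plates with values that differ, 1 plate lay farther from the rest than Dixon's 95% critical value. The 3 mutant plates of 24 hpf were too few for this rule and were not checked. Chance flags about 1 group in 20. That rate does not apply where all other plates are at 0, since any transcript is then past the critical value. This holds for hsp90aa1.1 and the wild-type plate of hsp90aa1.2 below. For hspb1 the flagged plate was wild-type plate 1 of 3.5 hpf, with 2.25 transcripts per cell over 4 cells, the nearest plate having 0.245. For hsp90aa1.1 it was mutant plate 1 of 8 hpf, with 0.0625 where the others had 0, and for hsp90aa1.2 wild-type plate 3 of 3.5 hpf, with 0.0204 from a single transcript. For hsp90aa1.2 it was also mutant plate 4 of 8 hpf, whose 2 cells gave 0.5, with the nearest plate at 0.192.

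Cells outside the comparisons were searched only for values above every wild-type plate of their stage, and there were 7 cases. The 5 wells of 8 hpf in the plate labelled with 2 stages held 2.2 transcripts per cell of hspb1 (highest wild-type plate 1.33), 0.6 of hspe1 (0.16) and 0.2 of hsp90aa1.1 (0), the last being 1 transcript. The 48 wells of 8 hpf described as heterozygous held 0.3125 of hspe1 (0.16) and 0.0625 of hsp90aa1.1 (0), beside 6.15 muscle and 5.73 globin transcripts per cell. The 40 wells of 24 hpf in the plate of 2 stages held 0.2 of hsp90aa1.1 (0.171) and 0.525 of hsp90aa1.2 (0.488), beside 6.83 muscle transcripts per cell. Other values lay below every wild-type plate. The heterozygous wells held 0.292 of hspb1, where the lowest wild-type plate of 8 hpf had 0.81. The 5 wells of 8 hpf held 0 of hspa5 and of hsp90aa1.2, where the lowest wild-type plates had 0.0952 and 0.0476.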

How the results depend on the processing

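Of the members' values under single alternatives, 2324 kept their direction and their side of the threshold (110 of them uncalled values that turned sign within 1 SE), 27 came to pass it, 16 no longer passed it and 6 reversed; none of the reversed values passed the threshold. With the top cell of each plate left out, the genotype difference of hsp90aa1.1 at 24 hpf was 0.19 and the step of hsp90aa1.2 from 8 to 24 hpf in the mutant 0.050. With voom, the step from 8 to 24 hpf was −0.034 for hspa5 and −0.56 for xbp1 in the mutant and −0.51 for xbp1 in the wild type, where the median of all genes was itself at −0.42 and −0.18. With plates weighted by cells, the change of genotype difference of hsp90aa1.2 from 3.5 to 8 hpf was −0.44. The causes were not tested.

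Counts of members that passed moved as follows, with hsp90aa1.1 counted although its steps to 24 hpf are not read as tests. From 3.5 to 8 hpf in the mutant the count was 3 with the top cell left out. From 8 to 24 hpf in the mutant it was 0 with 1 added on the log scale or with only the compared groups fitted, 2 with no filter or with trimmed-mean scaling, 3 without mutant plate 1 of 8 hpf and the plates of fewer than 10 cells, and 0 to 2 with single plates left out. From 8 to 24 hpf in the wild type it was 2, and 1 with the stricter filter, which did not test hsp90aa1.1, and 1 with the top cell left out. It was 2 to 3 with single plates left out and at most 3 over the other settings, shares of cells aside. From 3.5 to 8 hpf in the wild type it was 3, with 2 to 4 when single plates were left out. Over the other settings, shares of cells aside, that count was 3 to 4. In the nanos3 division it was 1 with 2 transcripts required and 0 to 1 with single plates left out.

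Of the further folding genes, the count from 3.5 to 8 hpf in the mutant was 8 with plates scaled to the same total or without the plates of fewer than 10 cells, 9 weighted by cells, 11 with voom and 5 to 8 with single plates left out (8 without wild-type plate 1 of 3.5 hpf). In the wild type it was 5 with the top cell left out and 4 to 8 with single plates left out (4 without plate 3 of 8 hpf). From 8 to 24 hpf in the mutant it was 1 with 0.1 added, no filter, plates scaled to the same total, shares of cells, or shares thinned to 150 transcripts, 0 with only the compared groups fitted and 0 to 3 with single plates left out (0 without mutant plate 1 or 3 of 24 hpf). In the wild type it was 3 with thinned shares and 4 to 7 with single plates left out (4 without plate 1 of 8 hpf).

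Same-numbered plates of the genotypes had correlations of −0.407 to 0.317, so the numbers were not taken to pair them. With the replicate block, members that passed numbered 5 and 1 in the mutant steps and 3 and 2 in the wild-type steps (hsp90aa1.1 again counted), with 0 between genotypes, and the further genes 6, 1, 8 and 6. The few transcripts per cell and the plates of 2, 4 and 6 cells limit what a plate mean can show.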
